A study of Mus musculus with 12 samples.

Results

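The basement membrane collagens were taken as 8 genes: the 6 collagen IV chains (Col4a1, Col4a2, Col4a3, Col4a4, Col4a5 and Col4a6) and the multiplexins Col15a1 and Col18a1. They were found by gene name in a bulk RNA-seq table of 25116 genes, in which 7 of the 8 had a row. Col4a6 was not analysed here. All 12 libraries came from breast tumours grown in mice from the E0771 line, a triple-negative mouse mammary cancer line, placed in the mammary fat pad and collected on day 22. The hosts of both groups were Tie2CreER;ERKi C57BL/6J mice, which carry a tamoxifen-inducible Cre recombinase under the Tie2 promoter and a knock-in gene for endorepellin, the C-terminal fragment of perlecan (the product of Hspg2). The induced group of 7 tumours came from mice given tamoxifen, and the control group of 5 came from mice given the control injection. Tamoxifen was also the inducer of the endorepellin gene, so the effects of the drug and of endorepellin cannot be told apart. Induction of the gene is limited to host cells in which Tie2 drives Cre. The age of the mice was not in the labels used here, which also do not say how the samples of a group relate, so p-values measure the spread between these tumours.

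Collagen IV forms the sheet-like network of basement membranes, the layer on which endothelium and epithelium rest. Its protomer is a triple helix. The form made of α1 and α2 chains is found in nearly all basement membranes, whereas the α3, α4, α5 and α6 chains are confined to a few tissues such as the glomerulus. Collagens XV and XVIII are proteoglycans of the basement membrane zone. Several of these chains release antiangiogenic C-terminal fragments when cut by proteases: arresten from Col4a1, canstatin from Col4a2, tumstatin from Col4a3, restin from Col15a1 and endostatin from Col18a1. Counts per gene measure the mRNA of the whole chain and carry no information on the release of a fragment.

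The collagen IV genes lie in head-to-head pairs. On GRCm38, with the annotation of GENCODE mouse release 21, Col4a1 spans chr8:11198423-11312826 on the minus strand and Col4a2 spans chr8:11312805-11449287 on the plus strand, so their outermost starts are 21 bases apart and their first exons share 22 bases. The starts of Col4a3 (chr1:82586921-82722059, plus) and Col4a4 (chr1:82448423-82586849, minus) are 72 bases apart. Those of Col4a5 (chrX:141475385-141689234, plus) and Col4a6 (chrX:141165403-141474076, minus) are 1309 bases apart. Col15a1 lies at chr4:47208161-47313167 on the plus strand and Col18a1 at chr10:77052178-77166548 on the minus strand. Exons of Col4a3 share 5.65% of their bases with C430014B12Rik on the opposite strand. For the other members with a row, the shared part is under 1% of the exonic bases with any gene. Whether counting used strand is not stated by the labels, so reads from such shared bases cannot be assigned.

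Promoter sequences are shown for the 3 abundant collagens, whose levels moved together across tumours, and for Col15a1, whose relation with theirs did not pass the test. They are RefSeq sequences of build GRCm38.p6, printed 5′ to 3′ on the strand of the gene. Each runs from upstream of a RefSeq transcription start into the first bases transcribed from that start. Capitals mark matches to the CCAAT box (CCAAT) and the GC box (GGGCGG) on either strand, so that they also appear as ATTGG and CCGCCC. The windows lie at chr8:11312777-11313076 (Col4a1, minus), chr8:11312555-11312854 (Col4a2, plus), chr10:77166481-77166780 (the upstream of the Col18a1 starts, minus) and chr4:47207762-47208061 (Col15a1, plus). The Col15a1 window surrounds a RefSeq start at 47208012 and ends upstream of the GENCODE start at 47208161. By the GENCODE annotation it holds no transcribed base of Col15a1.
Col4a1: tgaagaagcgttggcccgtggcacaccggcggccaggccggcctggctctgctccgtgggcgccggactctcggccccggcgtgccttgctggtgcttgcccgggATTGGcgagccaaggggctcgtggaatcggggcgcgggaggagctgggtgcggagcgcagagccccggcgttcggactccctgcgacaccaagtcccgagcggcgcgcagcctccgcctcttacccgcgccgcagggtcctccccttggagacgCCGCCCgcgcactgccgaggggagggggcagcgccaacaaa
Col4a2: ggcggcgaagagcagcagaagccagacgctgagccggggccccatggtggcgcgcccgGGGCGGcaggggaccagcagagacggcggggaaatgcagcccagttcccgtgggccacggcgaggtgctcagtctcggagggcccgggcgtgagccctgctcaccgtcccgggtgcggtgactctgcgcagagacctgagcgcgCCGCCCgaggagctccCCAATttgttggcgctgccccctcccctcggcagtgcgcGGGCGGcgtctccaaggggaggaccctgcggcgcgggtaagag
Col18a1: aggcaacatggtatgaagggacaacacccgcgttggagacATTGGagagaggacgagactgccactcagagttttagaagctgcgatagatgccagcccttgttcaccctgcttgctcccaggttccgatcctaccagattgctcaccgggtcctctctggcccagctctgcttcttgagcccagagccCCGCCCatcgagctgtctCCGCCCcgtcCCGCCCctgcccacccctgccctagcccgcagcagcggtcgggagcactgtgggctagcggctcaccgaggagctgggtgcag
Col15a1: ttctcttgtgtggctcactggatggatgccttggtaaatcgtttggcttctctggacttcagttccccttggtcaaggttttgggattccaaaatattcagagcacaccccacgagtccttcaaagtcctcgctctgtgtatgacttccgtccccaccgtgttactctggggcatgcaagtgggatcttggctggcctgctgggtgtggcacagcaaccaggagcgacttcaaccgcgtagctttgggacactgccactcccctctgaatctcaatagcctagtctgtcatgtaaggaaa

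The Col4a1 and Col4a2 windows are read on opposite strands and overlap by 78 bases, which hold 1 GC box counted in both. Upstream of its own start, each of these windows lies within the annotated span of the other gene. Col4a1 had 1 CCAAT box and 1 GC box in its window, and Col4a2 had 1 CCAAT box and 3 GC boxes. The upstream Col18a1 window had 1 CCAAT box and 3 GC boxes, whereas the window of the downstream Col18a1 start (chr10:77113656-77113955, not printed) held neither. The Col15a1 window held no match to either motif. Of the low chains, Col4a5 had 1 CCAAT box and 1 GC box, Col4a6 had 1 GC box alone, and Col4a4 had neither. The motifs thus did not separate the abundant collagens from the others. Among 32851 promoter windows of the same length, 37.4% had a CCAAT box and 35.7% had a GC box. GC content was 74% in the Col4a1 window and 73.7% in the Col4a2 window. It was 63.3% in the upstream and 59.7% in the downstream Col18a1 window and 52.3% for Col15a1, against a median of 52.7% over all windows. No TATAAA was found in these windows on either strand, and 13.6% of all windows have one. A match describes the letters of a window and does not show that a factor binds there.

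Total counts were 18993192 to 28372821 per library. The libraries control 1, control 2, induced 3 and induced 4 stood apart from the other 8 on the first principal component of log2 CPM (counts scaled to a common library size), which held 45.6% of the variance: they lay at 42.0 to 73.3, against -40.3 to -4.50 for the others. The labels give no batch that matches this split, and results are given with and without these libraries where they rest on them. Endothelial markers were present, with Pecam1 at 32.3 ± 6.53 CPM in induced tumours and 32.9 ± 7.82 CPM in control tumours (SD, n = 7 and 5). The epithelial markers were low, with a summed level of 2.53 to 5.10 CPM in induced and 1.71 to 8.09 CPM in control tumours over 7 genes including Krt8, Epcam and Cdh1, although the labelled line is of mammary epithelial origin. In whole tumours, fewer cells of a type and less RNA per cell cannot be told apart.

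Col18a1, Col4a1 and Col4a2 made up nearly all of the basement membrane collagen mRNA. Col15a1 was lower than Col4a2 by a ratio of 46.7 per kilobase of exon, and the α3, α4 and α5 chains were lower still. Per kilobase of exon, Col18a1 averaged 117 CPM over the 12 tumours, a level higher than that of 98.5% of the 25032 genes with a known exonic length. Col4a1 averaged 78.5 CPM per kilobase, above 97.7% of genes, and Col4a2 averaged 33.0 CPM per kilobase, above 93.6%. Col15a1 stood at 0.707 CPM per kilobase, near the middle of all genes, with 48.9% lower. The remaining chains were at 0.0437 (Col4a4), 0.0303 (Col4a5) and 0.0190 CPM per kilobase (Col4a3). The order from Col18a1 through Col4a1, Col4a2 and Col15a1 to Col4a4 held in 12 of 12 tumours at each step. Col4a4 was above Col4a5 in 10 of 12, and Col4a5 was above Col4a3 in 6 of 12, so the levels of Col4a5 and Col4a3 did not differ beyond their spread.

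Col4a1, the more abundant chain of the common protomer, had 355 CPM in the lowest, 566 in the median and 878 in the highest of the 7 induced tumours, against 615, 650, 485, 515 and 715 CPM in control tumours 1 to 5. Induced tumours averaged 579 ± 170 CPM and control tumours 596 ± 95.3 CPM (SD, n = 7 and 5). The lowest and the highest of all 12 tumours were both in the induced group, induced 6 and induced 3, and the control values lay between them. The log2 fold change, induced over control, was -0.04 (SE 0.19), with an adjusted p of 0.999886 in edgeR's quasi-likelihood test. An exact permutation test on log2 CPM gave a difference of -0.08, with a 95% interval of -0.55 to 0.39 and a two-sided p of 0.708. That interval covers folds of 0.683 to 1.31.

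Col4a2, the partner chain, had 129 CPM in the lowest, 199 in the median and 363 in the highest induced tumour, against 249, 253, 174, 182 and 251 CPM in control tumours 1 to 5. The means were 216 ± 81.8 CPM in induced and 222 ± 40.0 CPM in control tumours. As for Col4a1, induced 6 was the lowest and induced 3 the highest of all tumours, and the groups overlapped. Induced over control, the fit gave a log2 fold change of -0.04 (SE 0.23; edgeR, adjusted p 0.999886). The exact test gave a difference of -0.10 on the log2 scale, with an interval of -0.67 to 0.50 and p = 0.706.

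Col18a1, which carries endostatin, had 511 CPM in the lowest, 790 in the median and 999.8 in the highest induced tumour, against 784, 863, 737, 802 and 1085 CPM in control tumours 1 to 5. Induced tumours averaged 793 ± 203 CPM and control tumours 854 ± 137 CPM. Here the highest tumour was control 5 and the lowest again induced 6. The fitted log2 fold change of -0.11 (SE 0.18; edgeR, adjusted p 0.999886) did not pass the test, and the exact test gave -0.14, with an interval of -0.58 to 0.31 and p = 0.481. A 2nd RefSeq start of Col18a1 lies 52825 bases downstream of the window printed above, and gene counts do not separate the transcripts of these starts.

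Col15a1, the source of restin, was low in most tumours and high in a pair of them, 1 per group. Induced tumours 1 to 7 had 2.37, 2.01, 2.37, 13.1, 4.43, 2.58 and 1.11 CPM, against 17.7, 2.66, 2.25, 1.18 and 2.17 CPM in control tumours 1 to 5. Induced 4 and control 1 stood above all others, and the remaining tumours had 1.11 to 4.43 CPM in the induced and 1.18 to 2.66 CPM in the control group, which overlap. The means were 3.99 ± 4.13 CPM in induced and 5.18 ± 7.00 CPM in control tumours, so that the SD exceeded the mean in both groups. The fitted log2 fold change of -0.38 (SE 0.72; edgeR, adjusted p 0.999886) did not pass the test, and the exact difference was -0.06 (interval -1.70 to 1.49, p = 0.919). These 2 tumours set the sign of the fold change: it was 0.96 without control 1, -1.08 without induced 4 and 0.26 without both, the last fit having been added after the data were seen.

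The chains of the tissue-restricted protomers were near the limit of counting. Col4a4 had 7 to 15 counts per library in induced tumours and 5 to 12 in control tumours. Its mean was 0.526 ± 0.172 CPM in induced and 0.375 ± 0.0752 CPM in control tumours, and 5 of 7 induced tumours were above the control mean. The fitted log2 fold change of 0.47 (SE 0.31; edgeR, adjusted p 0.999886) did not pass the test. The exact difference was 0.38, with an interval of -0.10 to 0.85 and p = 0.106, which was 0.636 after adjustment over the 6 exact tests. Without induced 5 the unadjusted exact p was 0.0476, at a difference of 0.46.

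Col4a3, the source of tumstatin, had 0 to 7 counts per library in induced tumours, 21 in all, and 2 to 15 in control tumours, 29 in all. Of these, 15 were in control 4. The count of 0 in induced 3 allows a level of up to 0.152 CPM at 3 counts, a limit that covers counting error only. Col4a5, the chain shared by the restricted protomers, had 1 to 5 counts in induced tumours, 22 in all, and 1 to 27 in control tumours, 38 in all. Of those 38 counts, 27 were in control 1. Both genes fell below the filter on low counts and were not tested, and at these counts a difference between the groups was not detectable.

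**Figure D1:**
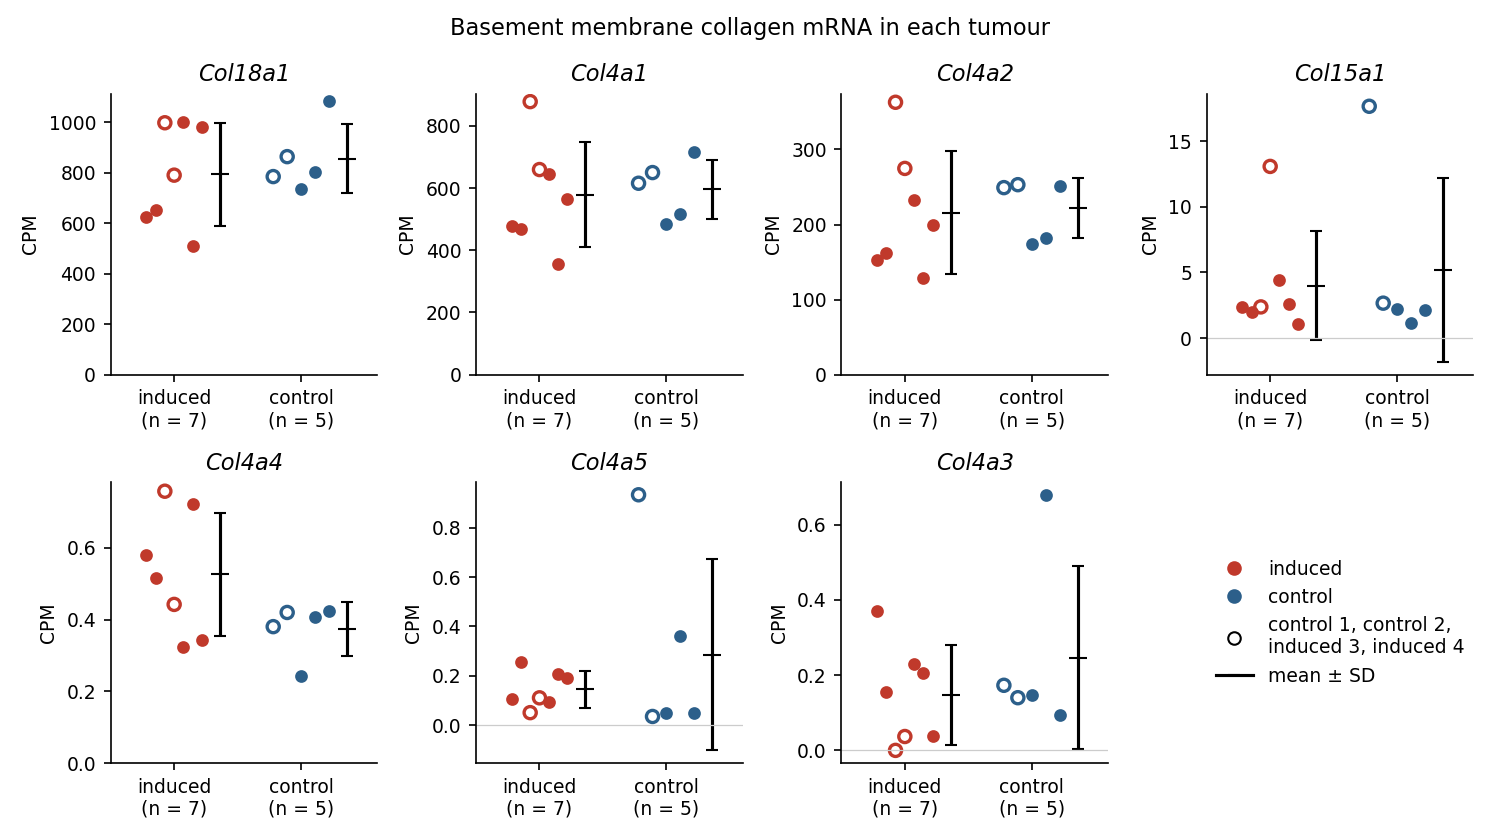
CPM of the 7 basement membrane collagens with a row, 1 point per tumour, with mean ± SD beside each group (induced, n = 7, left; control, n = 5, right); each panel has its own linear axis, and open circles mark control 1, control 2, induced 3 and induced 4. The groups overlap in every panel, and the Col15a1 panel shows induced 4 at 13.1 CPM and control 1 at 17.7 CPM far above the rest.

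No basement membrane collagen was called as changed in induced tumours. Of the 5 members that passed the filter on low counts, 0 had an adjusted p under 0.05 and 0 had an unadjusted p under 0.05 in edgeR. Over all 15199 genes tested, 0% were called after adjustment and 2.13% had an unadjusted p under 0.05, so the members' count of 0 is close to this background. Limma-voom also called 0 of 5 members, and 0 had an unadjusted p under 0.05, where 6.55% of all genes did. DESeq2 gave no p for Col15a1 and called 0 of the other 4, with 0 at an unadjusted p under 0.05, where 2.44% of all genes were. The log2 fold change was below 0 for 4 members and above 0 for 1, with a median of -0.04, where 50.2% of all genes tested were below 0 and the median was -0.00083. The groups overlapped in CPM for 5 of 5 members, and 0.0526% of all genes had groups that did not overlap. In the authors' deposited table the log2 fold changes were -0.04 for Col4a1, -0.04 for Col4a2, -0.11 for Col18a1, -0.38 for Col15a1, 0.46 for Col4a4, -0.76 for Col4a3 and -1.01 for Col4a5. Its adjusted p was 0.994 for the 6 of these that have one, and Col15a1 has none.

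The proportion of the partner chains ranged less between tumours than the level of either chain. Per library, Col4a1 had 2.40 to 3.14 times the CPM of Col4a2 in induced tumours and 2.47 to 2.85 times in control tumours, with means of 2.75 ± 0.264 and 2.70 ± 0.172 (SD, n = 7 and 5). Per kilobase of exon the means were 2.44 ± 0.234 in induced and 2.39 ± 0.152 in control tumours. The difference in the log2 ratio was 0.02, with a 95% interval of -0.13 to 0.17 and an exact permutation p of 0.771, an interval that covers ratios of 0.914 to 1.13. This interval was narrower than that of either chain alone. The 4 libraries that stood apart had the 4 lowest ratios, at 2.40 to 2.57, where the other 8 had 2.75 to 3.14. The ratio of Col18a1 to Col4a1 per kilobase was 1.48 ± 0.218 in induced and 1.53 ± 0.136 in control tumours, and ranged from 1.21 in induced 3 to 1.84 in induced 7.

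**Figure D2:**
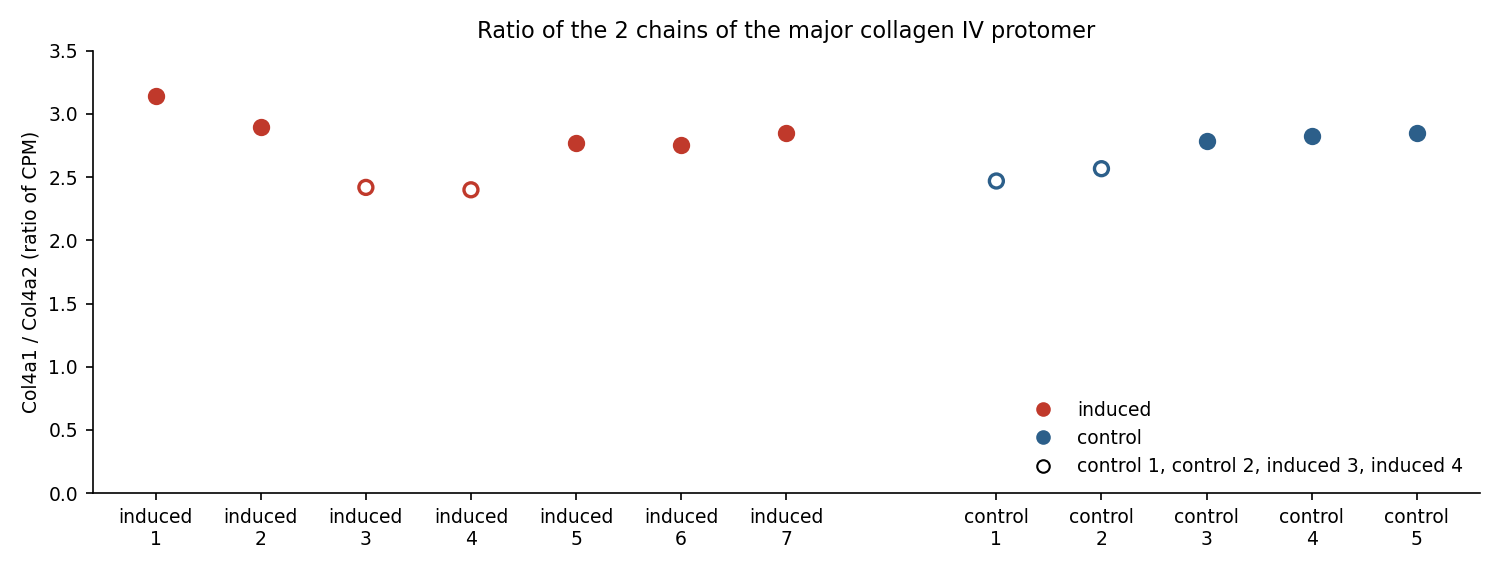
Ratio of Col4a1 CPM to Col4a2 CPM in each tumour, induced 1 to 7 on the left and control 1 to 5 on the right, on a linear axis from 0. The open circles (control 1, control 2, induced 3 and induced 4) sit at 2.40 to 2.57, below the filled ones at 2.75 to 3.14, and both groups span both ranges.

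Col4a1, Col4a2 and Col18a1 varied together from tumour to tumour, and no relation of Col15a1 with them passed the test. Across the 12 tumours, log2 CPM of Col4a1 and Col4a2 had a Pearson r of 0.97 and a Spearman rho of 0.97, with permutation p-values of 1e-05 and 2e-05, the first of which is the smallest that 100000 resamples can give. After adjustment over the 10 pairs of tested members these were 0.0001 and 0.0002. Without the 2 tumours farthest from the median of Col4a1, r was 0.95. Among the 8 libraries that did not stand apart, r was 0.98 and rho 0.98 (exact permutation p 7.44e-05 and 0.000397), and among the 7 induced tumours r was 0.98 (exact permutation p 0.000595, adjusted 0.00595).

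Col4a1 and Col18a1, which lie on different chromosomes, had r = 0.86 and rho = 0.83 over the 12 tumours (permutation p 0.00031 and 0.00182, adjusted 0.00155 and 0.0091). Without the 2 farthest tumours r was 0.78, and among the 8 libraries r was 0.96 and rho 0.98 (exact permutation p 4.96e-05 and 0.000397). Col4a2 and Col18a1 had r = 0.78 and rho = 0.72 (permutation p 0.00284 and 0.0113, adjusted 0.00947 and 0.0377), with r = 0.64 without the 2 farthest and r = 0.98 among the 8 libraries. Among the 7 induced tumours alone, the relations with Col18a1 missed the threshold after adjustment, with r = 0.87 for Col4a1 (exact permutation p 0.0107, adjusted 0.0535) and r = 0.81 for Col4a2 (exact permutation p 0.0321, adjusted 0.107). Col15a1 had r = 0.25 and rho = 0.31 with Col4a1 (permutation p 0.429 and 0.33). The other 6 pairs, each with Col15a1 or Col4a4, did not pass the threshold after adjustment either. These correlations use levels scaled to the total of each library, which all genes of a library share.

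**Figure D3:**
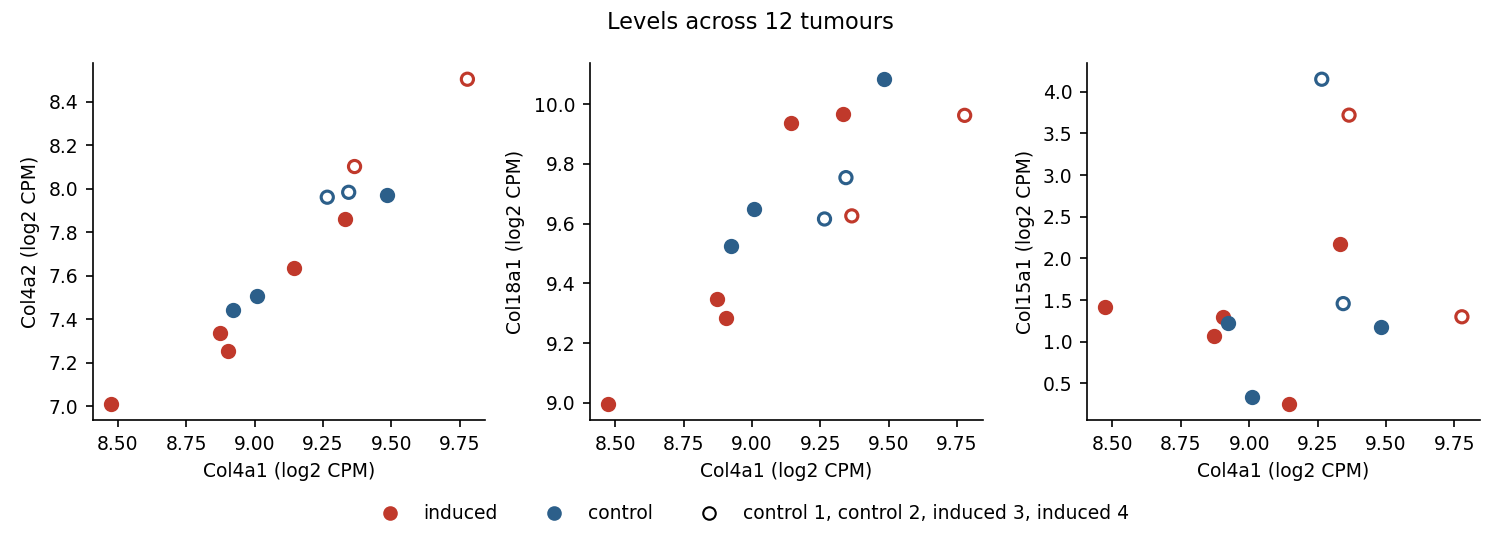
Log2 CPM of Col4a2 (left), Col18a1 (middle) and Col15a1 (right) against log2 CPM of Col4a1, 1 point per tumour, induced and control in different colours and the 4 libraries that stood apart as open circles. The Col4a2 points follow a line (r = 0.97), the Col18a1 points follow it with the open circles lower (r = 0.86), and the Col15a1 points scatter (r = 0.25).

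The share of counts from mitochondrial genes, a measure of library quality and cell content, moved against the abundant collagens. It was 1.08% to 3.41% in induced and 1.08% to 2.49% in control tumours, and highest in induced 6, the tumour lowest in Col4a1, Col4a2 and Col18a1. Its Pearson r with log2 CPM was -0.71 for Col4a1, -0.72 for Col4a2 and -0.71 for Col18a1, with an adjusted permutation p of 0.035 for each over 10 relations. By rank, rho was -0.58, -0.66 and -0.48 in that order, with adjusted p-values of 0.172, 0.172 and 0.24, which miss the threshold. Without the 2 tumours farthest from the median share, r was -0.43 for Col4a1. Among the 8 libraries, r was -0.69 for Col4a1, -0.68 for Col4a2 and -0.80 for Col18a1 (exact permutation p 0.0518, 0.0616 and 0.0205, adjusted 0.163 for each). By rank, rho there was -0.81, -0.79 and -0.79 (exact permutation p 0.0218, 0.0279 and 0.0279, adjusted 0.0736 for each). The 10 relations include those with total counts. With these, rho among the 8 libraries was 0.71 for Col4a1, 0.76 for Col4a2 and 0.76 for Col18a1 (exact permutation p 0.0576, 0.0368 and 0.0368, adjusted 0.096, 0.0736 and 0.0736). Over the 12 tumours it was 0.38, 0.48 and 0.45. The part of the mitochondrial share or of total counts in the covariation of the collagens was not tested.

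The genes whose level was most like that of Col4a1 were ranked by Spearman's rho over the 12 tumours among 9332 genes with a mean log2 CPM over 3. They were Caskin2 (0.99), Dlg5 (0.99), Egln2 (0.98), Nhsl1 (0.97) and Pnpla2 (0.97). Col4a2 was 12th in this ranking and Col18a1 was 717th, while among the 8 libraries both had a rho of 0.98 with Col4a1. The median rho of all compared genes with Col4a1 was 0.09, and 54.0% of them had a positive one. For Col18a1 the closest genes were Poldip2 (0.97), Sqstm1 (0.96), Erp44 (0.95), Abcb8 (0.94) and Dele1 (0.94). For Col15a1 they were Vrk2 (0.92), Gen1 (0.91), Polq (0.91), Cxcl12 (0.90) and Tasor (0.90). These values describe 12 libraries with no test, and the highest of so many correlations are large by selection.

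The pair of tumours high in Col15a1 was also the pair with the highest scores of fibroblast, pericyte and smooth muscle markers. These scores weigh each marker equally. By summed CPM, pericyte markers were highest in induced 1 and lowest in control 1, and smooth muscle markers were highest in induced 3. The summed level of the 8 fibroblast markers (Pdgfra, Dcn, Lum, Dpt, Col1a1, Col1a2, Col3a1 and Pi16) was 546 to 2010 CPM in induced and 674 to 3299 CPM in control tumours, highest in control 1. The mean centred log2 CPM of these markers was 1.68 in induced 4 and 3.13 in control 1, against -1.27 to 0.24 in the other 10 tumours. Col15a1 had r = 0.93 with this score (permutation p 0.00023, adjusted 0.0104 over 45 relations of members with marker scores), but by rank rho was 0.73 (p 0.00862, adjusted 0.194). Control 1 and induced 4 were also the 2 tumours farthest from the median score. Without them r was 0.60 and rho 0.54 (permutation p 0.0589 and 0.113). The relation thus passed the test only with those tumours included. Among the 8 libraries rho was 0.33 (exact permutation p 0.428). The smooth muscle score was 1.22 in induced 4 and 0.67 in control 1, where the next highest tumour had 0.50, and its r with Col15a1 was 0.75 (adjusted permutation p 0.0943) and its rho 0.74 (adjusted 0.194). The pericyte score was 0.74 in induced 4 and 0.62 in control 1, where the next highest had 0.24, and its r with Col15a1 was 0.73 (adjusted permutation p 0.192) and its rho 0.36. Without these 2 tumours r was 0.50 for smooth muscle and -0.20 for pericytes. Control 1 also had the highest leukocyte (1.90), adipocyte (2.43) and epithelial (1.48) scores, where induced 4 had -0.05, 0.87 and -0.38. Over the 12 tumours Col15a1 had r = 0.59 with the leukocyte score (adjusted permutation p 0.565) and 0.55 with the adipocyte score (adjusted 0.582). High marker scores in control 1 were thus not limited to fibroblast, pericyte and smooth muscle lists. None of the tested markers of these lists was called between the groups. The part of any of these cell types in the Col15a1 level was not tested.

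No relation of a collagen with the endothelial markers passed the test. The summed level of 10 endothelial markers was 104 to 156 CPM in induced and 107 to 157 CPM in control tumours. Their score had r = 0.45 with Col4a1 (permutation p 0.146, adjusted 0.774) and r = 0.18 with Col18a1 (permutation p 0.575, adjusted 0.996). With Col15a1 it had r = 0.41 (permutation p 0.172, adjusted 0.774). Without control 1 and induced 4 this r was 0.61 (permutation p 0.0599, adjusted 0.99), close to that of the fibroblast score. Pericyte markers summed to 87.6 to 130 CPM in induced and 78.3 to 120 CPM in control tumours, with the lowest sum in control 1. Smooth muscle markers summed to 19.6 to 90.5 CPM in induced and 33.2 to 73.9 CPM in control tumours. Leukocyte markers ranged from 33.3 to 172 CPM in induced and from 71.1 to 454 CPM in control tumours, and skeletal muscle markers from 12.6 to 440 CPM in induced and from 3.46 to 461 CPM in control tumours. Adipocyte markers summed to 21.6 to 61.5 CPM in induced and 25.4 to 57.4 CPM in control tumours, and Schwann cell markers to 2.32 to 6.15 CPM in induced and 3.01 to 4.98 CPM in control tumours. For every list the ranges of the groups overlapped, and 0 of the tested markers were called. Some markers fell below the filter and were not tested: only 1 of 4 Schwann cell and 3 of 7 epithelial markers passed it.

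**Figure D4:**
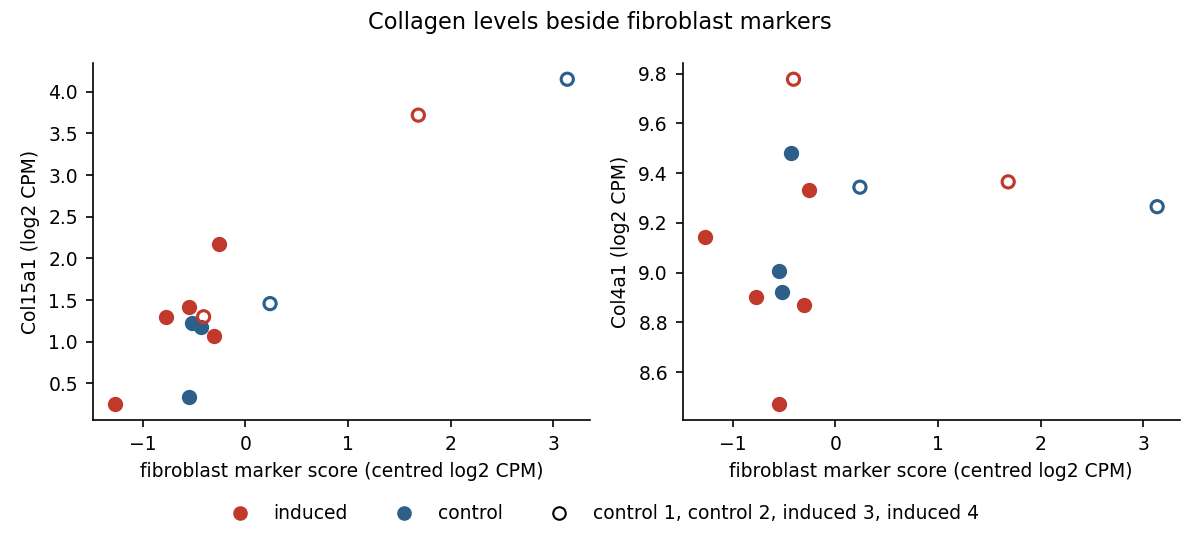
Log2 CPM of Col15a1 (left) and Col4a1 (right) against the fibroblast marker score, the mean centred log2 CPM of 8 markers, 1 point per tumour, with the 4 libraries that stood apart as open circles. Col15a1 is highest in induced 4 and control 1, at scores of 1.68 and 3.13, while Col4a1 in these tumours lies within the range of the others.

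None of the tested genes that build, bind, sense and cut these collagens was called either. Among the 51 genes of 4 lists, 49 were tested, 0 were called, and 16 had a log2 fold change above 0 and 33 below 0, with a median of -0.05. Of 17 genes for chain modification, folding and crosslinking, 16 were tested, with 5 above 0 and 11 below. The lowest p was that of Plod3, a lysyl hydroxylase and glycosyltransferase, at 106 ± 12.9 CPM in induced and 120 ± 13.2 CPM in control tumours (log2 fold change -0.18, SE 0.10, unadjusted p 0.0986, edgeR). It was followed by P3h2, a prolyl 3-hydroxylase that acts on collagen IV (-0.58, SE 0.34), Ppib, a prolyl isomerase (-0.28, SE 0.18), and Plod2, another lysyl hydroxylase (0.10, SE 0.10).

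The 12 network partners, which are laminins, nidogens, heparan sulfate proteoglycans and other basement membrane proteins, had 3 log2 fold changes above 0 and 9 below, with a median of -0.10. The lowest p-values belonged to Tinagl1 (-0.43, SE 0.27), Lama2 (-1.28, SE 0.96), Lama5 (-0.15, SE 0.13) and Nid2 (0.24, SE 0.29). Lama2, the laminin α2 chain, was highest in control 1 at 5.71 CPM. Hspg2, which encodes perlecan and is the source of endorepellin, was at 535 ± 100.02 CPM in induced and 549 ± 81.5 CPM in control tumours (log2 fold change -0.04, SE 0.14). Across the 12 tumours 10 of the 12 partners had a positive Spearman rho with Col4a1, with a median of 0.69, beside a median of 0.09 over all compared genes. Among the 8 libraries that did not stand apart, 11 of the 12 were positive and the median was 0.56, beside 0.14 over all genes. Hspg2 had a rho of 0.92 over 12 tumours and 0.74 over the 8 libraries, Lamb1 had 0.90 and 0.93, and Lamc1 had 0.87 and 0.81. The median rho of the 16 synthesis genes was 0.23 over 12 tumours and 0.71 over the 8 libraries, and that of the 11 receptors was 0.43 and 0.40. The order of the lists thus changed with the 4 libraries, and no difference between lists was tested.

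Of the 12 receptors, 11 were tested, with 4 above 0 and 7 below and a median of -0.04. The lowest p-values were those of the integrin subunit Itgb5 (-0.30, SE 0.17), the adhesion G protein-coupled receptor Adgrg6, which binds collagen IV (-0.69, SE 0.53), Itga1, the α subunit of a collagen IV-binding integrin (-0.35, SE 0.28), and Itga3 (0.07, SE 0.09). All 10 proteases were tested, with 4 above 0 and 6 below and a median of -0.07. Of the 10, 3 had an unadjusted p under 0.05, where the share over all genes tested was 2.13%, and none was called after adjustment. The list was chosen with earlier results of these data known, so these shares are not a test of the list.

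Mmp9, a gelatinase that cuts collagen IV, averaged 1.64 ± 1.20 CPM in induced and 13.4 ± 24.1 CPM in control tumours, the control mean being set by 56.4 CPM in control 2 (log2 fold change -3.01, SE 0.89, unadjusted p 0.00466, adjusted 0.999886, edgeR). Mmp12, the macrophage elastase, averaged 29.7 ± 16.5 CPM in induced and 14.5 ± 6.83 CPM in control tumours (log2 fold change 1.03, SE 0.38, unadjusted p 0.0168, edgeR). Mmp3, a stromelysin, averaged 3.96 ± 0.987 CPM in induced and 8.58 ± 9.57 CPM in control tumours and was highest in control 1, at 25.4 CPM (-1.12, SE 0.49, unadjusted p 0.0384, edgeR). Mmp13, a collagenase, had a log2 fold change of 0.89 (SE 0.44, unadjusted p 0.0638, edgeR).

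**Figure D5:**
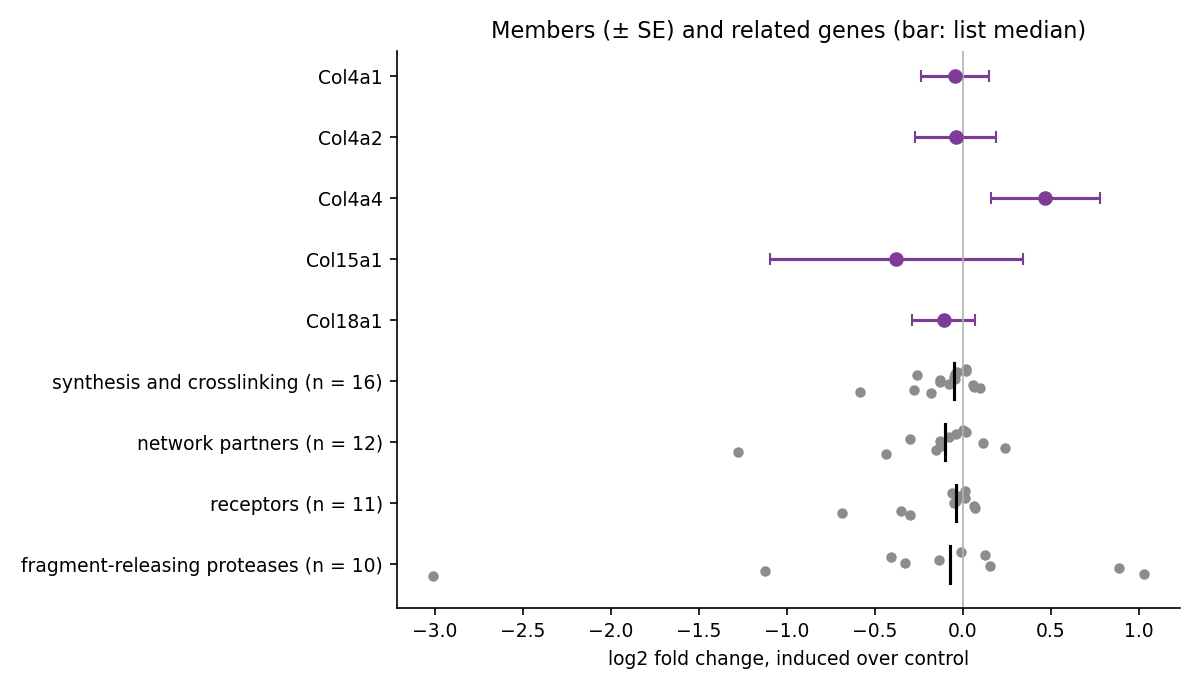
Log2 fold change, induced over control, of the 5 tested basement membrane collagens (points with ± SE) and of the genes of 4 related lists (grey points, 1 per gene; black bar, median of the list). The collagens lie from -0.38 (Col15a1) to 0.47 (Col4a4), and the list medians from -0.10 to -0.04.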

How the data were processed

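Bulk RNA-seq of 12 tumours (7 induced, 5 control) was used. Per the labels' protocols, column-purified total RNA entered a SMARTER mRNA-Seq preparation. The submitters' processing notes name build GRCm38 (mm10). No source used here names the aligner, counter or strand setting. Groups came from the titles, since the growth text in the labels describes another cell line. The deposited table holds, per the file headers, raw counts per gene, rlog values on the log2 scale (not used), and the authors' own log2 fold change, signed fold change score and p-values.

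Columns were matched to samples by library name. Rows with an identifier alone numbered 84. Counts were tested with edgeR 4.0.16 (R 4.3.3): filterByExpr (minimum count 10; 15199 genes kept, 9917 removed), TMM factors, two-sided robust quasi-likelihood test, Benjamini-Hochberg adjustment over the genes tested, threshold 0.05. CPM uses TMM-scaled library sizes, and log2 CPM a prior count of 2. Tumours varied with a common biological coefficient of 32.1%, and log2 fold changes had a median SE of 0.183. Chi-square per gene between libraries of a group was at least 13.0, so none was the same library sequenced again. This check cannot tell different tumours from separate preparations of the same tumour. Exact tests used all 792 splits into 7 and 5, with a smallest p of 0.00126, and intervals came from inverting the test. Correlations used 100000 resamples, or all permutations for 7 or 8 libraries (scipy 1.17.1). The edgeR test was also run on simulated counts with known changes. Those counts held no split like that of the 4 libraries, so the run does not measure the power of the test in these data. Figures used matplotlib 3.10.9.

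The members, lists, markers and alternatives were chosen with earlier results of these data known. Named genes were the members, up to 4 genes per list with the smallest p, and the 5 genes most like Col4a1, Col15a1 and Col18a1. Others of the partner list are named by their rho, chosen after their values were seen. Alternatives were other size factors and filters, DESeq2 1.42.0, limma-voom (limma 3.58.1), non-robust estimation, a replicate block and left-out libraries.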

Additional observations from a re-analysis of the deposited data

Results flagged for a closer look

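Of 16 groups of values tested, 14 were of a member and 2 of the Col4a1 to Col4a2 ratio. In 4 of them a tumour lay far from the rest of its group by the gap to its nearest neighbour. For normally distributed values chance alone would give about 1 in 20. Skewed CPM and low counts need not follow that rate, so the 4 are a description only. Col15a1 was 13.1 CPM in induced 4, the highest induced tumour, and 17.7 CPM in control 1, the highest control tumour. Both are among the libraries that stood apart and had the highest scores of fibroblast, pericyte and smooth muscle markers. Neither had the highest summed CPM of pericyte or smooth muscle markers. Control 1 also had the highest leukocyte, adipocyte and epithelial scores. Col4a3 was 0.679 CPM in control 4, from 15 counts, the highest control tumour. Col4a4 was 0.244 CPM in control 3, from 5 counts, the lowest control tumour.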

How the results depend on the processing

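In the 25 alternatives to the edgeR fit, 0 members and 0 related genes were called, and the smallest adjusted p of a member was 0.730; DESeq2 gave no p for Col15a1. Signs were less stable. With a replicate block, the log2 fold change was 0.042 for Col4a1, 0.033 for Col4a2 and 0.24 for Col15a1. Tumours of the same number did not deviate together over all genes tested (r = -0.31, -0.51, -0.51, -0.53 and 0.21). These deviations include the split of the 4 libraries, so the check cannot exclude a pairing by number. In the 4 libraries that stood apart, taken alone, the log2 fold change was 0.27 for Col4a1, 0.33 for Col4a2 and 0.11 for Col18a1, with a median of 0.27 over the members. Without those 4 it was -0.19, -0.22 and -0.22 for these genes, and with limma-voom -0.24, -0.26 and -0.31. For Col15a1 it was 0.29 with limma-voom, 0.42 without the 4 libraries, 0.11 with a term for their split, and 0.26 without control 1 and induced 4, the last added after seeing the data. The exact difference of Col15a1 was 0.33 without the 4 libraries. Pearson's r of Col4a4 with Col15a1, -0.07 over all tumours, was 0.060 without the 4 libraries and 0.0146 without the 2 farthest. The cause of these changes was not tested.

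With each tumour left out in turn, the log2 fold change ranged from -0.17 to 0.046 for Col4a1, -0.21 to 0.054 for Col4a2, -0.17 to -0.0044 for Col18a1, -1.08 to 0.96 for Col15a1 and 0.34 to 0.56 for Col4a4. Its sign turned for Col4a1 without induced 2 (0.0017), induced 6 (0.046) or control 5 (0.033), and for Col4a2 without induced 1 (0.030), induced 2 (0.020), induced 6 (0.054), control 1 (0.0024), control 2 (0.0043) or control 5 (0.011). The exact difference ranged from -0.19 to 0.028 for Col4a1, -0.24 to 0.0080 for Col4a2, -0.20 to -0.038 for Col18a1, 0.26 to 0.46 for Col4a4 and -0.42 to 0.56 for Col15a1. It turned for Col4a1 and Col4a2 without induced 6 and for Col15a1 without induced 2 (0.026), induced 7 (0.16) or control 1 (0.56). For Col4a4 it passed the unadjusted threshold without induced 5 (0.46, exact permutation p 0.0476). The log2 ratio of Col4a1 to Col4a2 ranged from -0.012 to 0.053, and turned without induced 1 (-0.012) or control 1 (-0.010). The median over the members ranged from -0.19 to 0.011, and the counts of called members and of called related genes stayed at 0. Col4a4 fell below the filter in some of these fits. Depth limits Col4a3, Col4a4 and Col4a5, at 27 counts or fewer per library.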
